A study of Homo sapiens with 2 samples.

Results

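Translation initiation factors are the proteins that bring the initiator tRNA, the small ribosomal subunit and the capped end of an mRNA together and find the start codon. The set described here holds the genes of the deposited tables whose symbol begins with EIF and a digit from 1 to 6, a rule that uses names and no measured value, set with earlier results of these data known. Of 132 such rows, 72 were pseudogenes, 5 were antisense or intronic transcripts and 1 was not analysed here, which left 54 genes of 60619 in all. They fall into eIF2 (3 genes), eIF2B (5), the eIF2 kinases (3), eIF3 (14), eIF4 (16) and other factors (13).

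The cells were HBEC-3KT, an established human bronchial epithelial line immortalized with CDK4 and telomerase, grown as flat cultures on gelatin for 4 to 5 days. The CBS group carried a pLenti6 lentivirus with human CBS, the gene of cystathionine beta-synthase, and the empty-vector (EV) group carried pLenti6 without it. Both were exposed to virus for 4 to 8 hours and selected with blasticidin at 10 µg/mL. RNA sequencing gave 1 library per group, of 20785957 counts for CBS and 20433062 for EV. The spread between cultures is therefore unknown, and differences are given with counting error and without a test.

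In textbook terms, eIF2 carries the initiator tRNA as a complex with GTP, and eIF2B recharges eIF2 with GTP after each round. Kinases that sense stress phosphorylate the alpha subunit of eIF2, which then blocks eIF2B and lowers overall protein synthesis. The eIF4 proteins recognise and unwind the capped mRNA, eIF3 joins it to the small subunit, and eIF1, eIF1A, eIF5 and eIF5B govern start codon choice and subunit joining.

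CBS itself, the check of the labels, was at 3669 counts with CBS against 280 in EV, a 12.2-fold difference, and its near-identical copy CBSL at 4378 against 343. All 9 markers fixed for basal airway epithelium were detected, summing to 7336 CPM (counts scaled to library size after TMM normalisation) with CBS and 11461 CPM in EV. Their log2 folds were below 0 for 8 of 9, with NGFR as the exception at 0.93, while 50.2% of all genes lay above 0. The 8 were far from uniform, from -2.15 for KRT14 to -0.10 for ITGA6 and -0.04 for TP63. Summed levels of the marker lists for other cells were 6.38 against 4.12 CPM for ciliated cells, 0.0469 against 0.703 for secretory cells, 6.24 against 13.8 for fibroblasts, 39.6 against 124 for immune cells and 4.17 against 0.753 for endothelium. Of these lists, FOXJ1, SCGB3A1, COL1A2, COL3A1, DCN, LUM, PTPRC, CD3E, MS4A1, LYZ and KDR had no count in either library, and the immune sum was mostly CD68, with 619 against 2259 counts. Others above the filter were CD14 (225 against 203 counts), the ciliated genes DNAH5 (94 against 26) and CAPS (37 against 41), COL1A1 of fibroblasts (132 against 270) and CDH5 of endothelium (87 against 7). The part of these differences in the results that follow was not tested. In bulk RNA, fewer cells of a type and less RNA per cell cannot be told apart.

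Transcripts of the initiation factors were, as a set, slightly higher in the CBS library, and none of them differed by as much as 2-fold. Of the 54 genes, 51 passed the filter on low counts, and their median log2 fold of CBS over EV was 0.18, against 0.00 over all 13304 genes above the filter. The fold was above 0 for 41 of the 51 genes and below 0 for 10, while 50.2% of all genes lay above 0. The number below 0 was 7 with plain library totals, 6 in log2(TPM + 1) and 15 with a trend on GC content and transcript length removed. In those settings 56.9%, 59.0% and 50.1% of all genes lay above 0. An exact 95% interval, which covers counting error only, lay above a ratio of 1 for 34 genes, or 66.7%, against 31.6% of all genes, and below it for 8 genes, or 15.7%, against 31.1% of all genes. Log2 fold followed GC content across the 13225 genes with a value (Spearman rho -0.28, across genes, which are not replicates), while rho was 0.066 across the 51 factors, and the median transcript GC was 45.8% for the factors and 48.1% for all genes. With that trend removed, the median log2 fold of the factors was 0.15, against 0.00 for all genes. Deep counts make such an interval narrow, and among all genes with at least 1000 counts in 1 library, 43.5% lay above and 37.0% below. Of the 41 factors at that depth, 29 lay above and 5 below, with a median log2 fold of 0.18 against 0.03 for all genes at that depth.

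A level at least 25% higher, with an interval above 1, was reached by 12 factors, or 23.5%, close to the 19.2% of all genes. A level at least 20% lower, the same fold downward, was reached by 2 factors, against 21.6% of all genes. At 1.5-fold there were 2 higher factors (EIF2B3 and EIF5AL1) and 0 lower, against 7.02% and 12.9% of all genes. The 2-fold level was reached upward by 1.41% and downward by 5.28% of all genes. The genes at least 25% higher were EIF2B3, EIF5AL1, EIF2AK4, EIF3J, EIF4E2, EIF2AK2, EIF4G2, EIF4A1, EIF1AX, EIF2S1, EIF4E and EIF5A, and those at least 20% lower were EIF3CL and EIF1. At this threshold, the rule still held under each of the alternative scalings, filters and corrections that gave a value for EIF2B3, EIF2AK4, EIF4A1, EIF4E2 and EIF5AL1 and for both lower genes. Removal of the GC and length trend took EIF1AX, EIF2AK2, EIF2S1, EIF3J, EIF4E and EIF4G2 under the threshold and brought EIF3B (0.37), EIF4EBP1 (0.34), EIF4G1 (0.44) and EIF6 (0.38) above it. It also brought EIF4E3 (-0.41) to at least 20% lower, so that 10 factors were higher and 3 lower with the trend removed. Of all genes, 18.2% were higher and 20.2% lower in that setting.

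**Figure D1:**
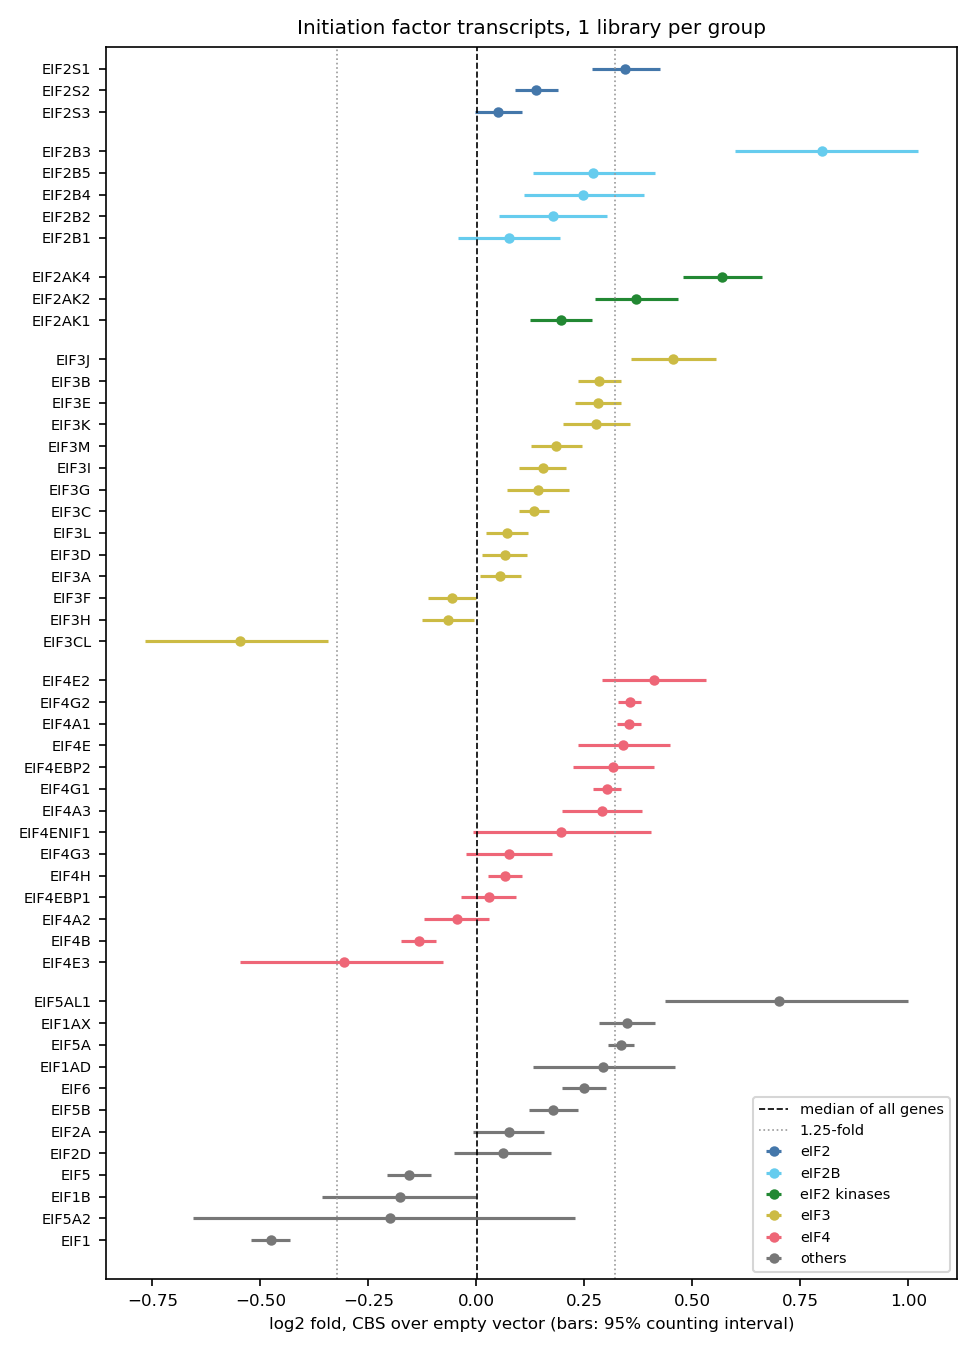
Log2 fold of CBS over EV for the 51 initiation factors above the filter, by factor group, with bars for the exact 95% counting interval of 1 library per group. The dashed line is the median of all genes, the dotted lines mark 25% higher and 20% lower, and 41 points lie right of 0.

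**Figure D2:**
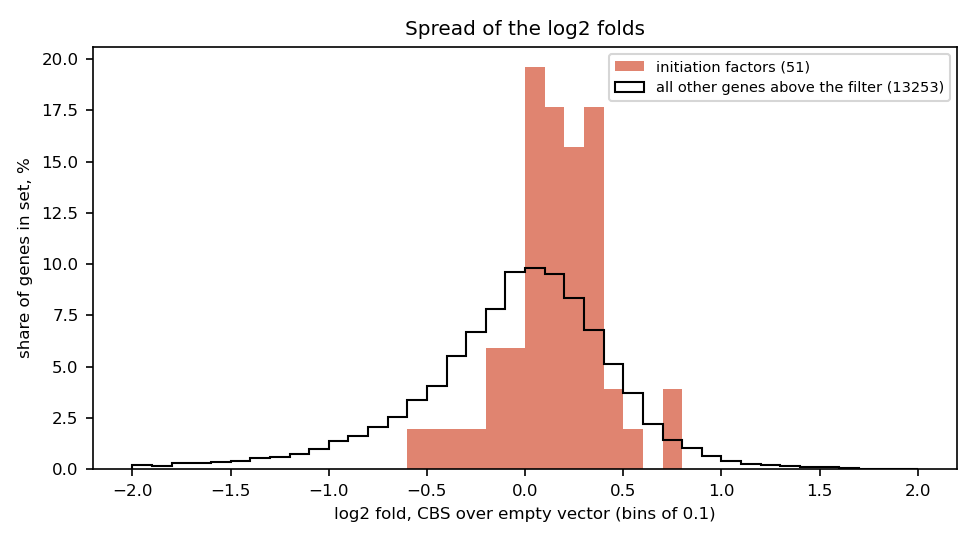
Share of genes in each bin of 0.1 of log2 fold, CBS over EV, for the 51 initiation factors (filled) and the 13253 other genes above the filter (outline). The factors gather just right of 0 with a median of 0.18, and the axis leaves out the 128 of all genes beyond a log2 fold of 2 in size, none of them a factor.

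Per length, the most abundant factors in both libraries were EIF4A1, the helicase that unwinds mRNA near the cap, and EIF5A, which carries hypusine and keeps the ribosome moving. EIF4A1 had 1453 TPM with CBS and 1127 TPM in EV, and EIF5A had 1212 TPM with CBS and 873 TPM in EV. EIF4G2, a scaffold related to eIF4G that cannot bind the cap-binding protein eIF4E, came next with CBS at 931 TPM, against 647 TPM in EV. EIF1 stood at 540.0 TPM with CBS and 689 TPM in EV, where it ranked above EIF4G2. All 54 genes summed to 11689 TPM in the CBS library and 9709 TPM in the EV library, a ratio of 1.20. Counts of the 51 genes gave a summed fold of 1.13 (1.12 to 1.13) after TMM scaling, against 0.951 for the summed counts of all genes above the filter. The median log2 fold of all genes was 0.09 in log2(TPM + 1) and 0.00 after TMM scaling.

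**Figure D3:**
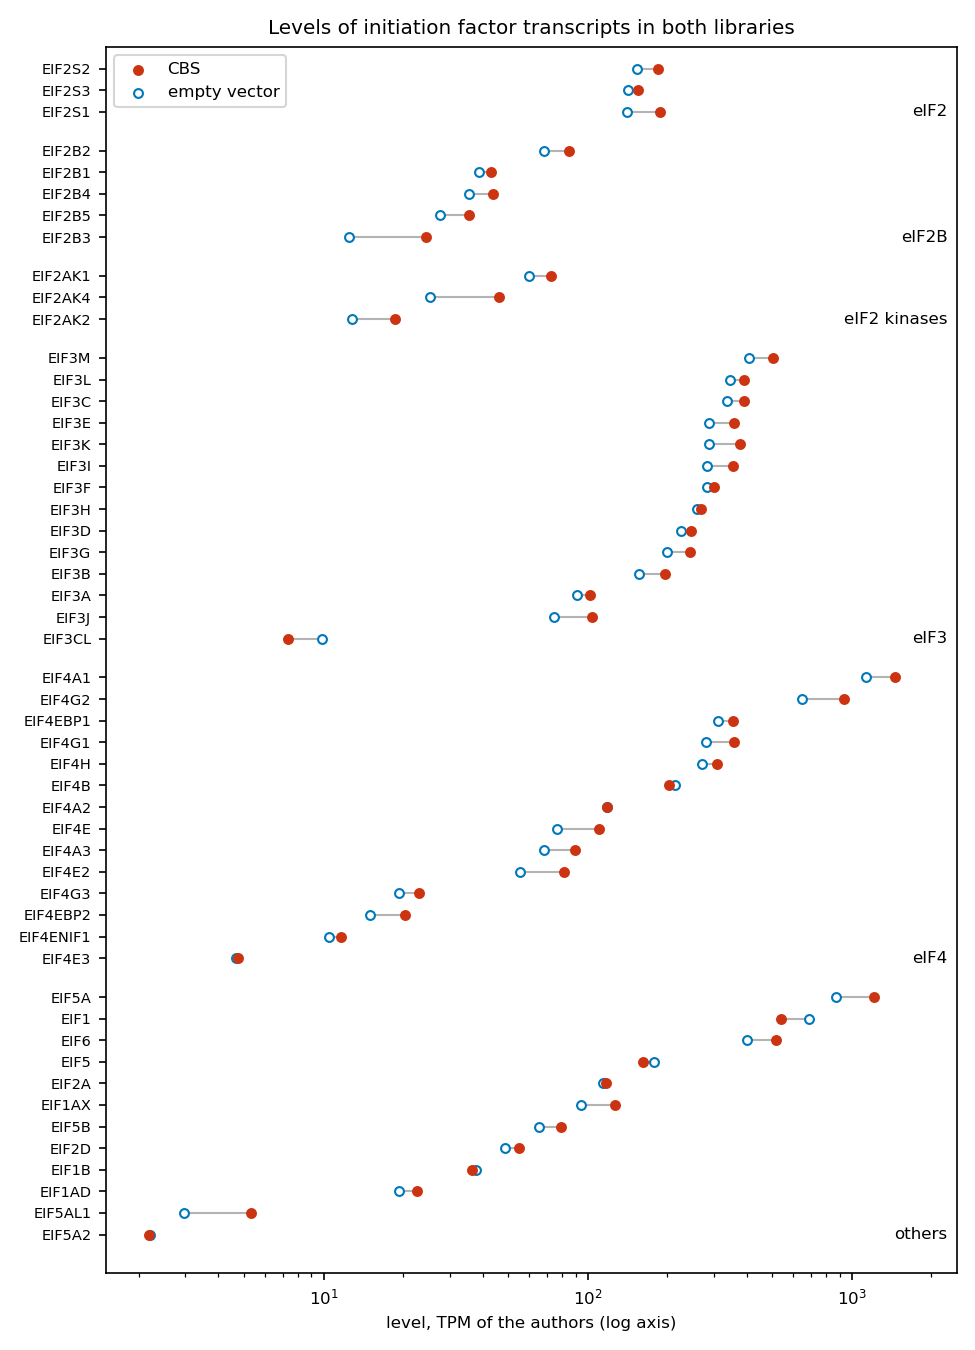
Level of each initiation factor above the filter in the authors' TPM on a log axis, filled circles for the CBS library and open circles for the EV library, by factor group. EIF4A1 and EIF5A stand highest, EIF2B3 and EIF2AK4 show wide gaps, and EIF1, EIF1B, EIF3CL, EIF4B, EIF5 and EIF5A2 lie lower with CBS.

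The 5 promoters printed here belong to the factor with the highest fold (EIF2B3), the kinase with the highest fold (EIF2AK4), the abundant factor that was lower by more than 20% (EIF1) and 2 members of the eIF4 group on opposite sides of 0 that share a motif (EIF4E and EIF4B). Each run is the 250 bases before a RefSeq transcription start, read 5′ to 3′ on the strand of the gene, in GRCh38.p14. Capitals mark CACGTG, the E-box bound by MYC, USF and related factors.
EIF2B3, chr1:44986596-44986845, - strand: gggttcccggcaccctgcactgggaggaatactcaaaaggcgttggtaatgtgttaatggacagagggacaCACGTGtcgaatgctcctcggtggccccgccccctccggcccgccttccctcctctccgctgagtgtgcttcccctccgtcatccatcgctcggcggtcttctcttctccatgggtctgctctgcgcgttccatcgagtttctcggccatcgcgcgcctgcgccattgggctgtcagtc
EIF2AK4, chr15:39933865-39934114, + strand: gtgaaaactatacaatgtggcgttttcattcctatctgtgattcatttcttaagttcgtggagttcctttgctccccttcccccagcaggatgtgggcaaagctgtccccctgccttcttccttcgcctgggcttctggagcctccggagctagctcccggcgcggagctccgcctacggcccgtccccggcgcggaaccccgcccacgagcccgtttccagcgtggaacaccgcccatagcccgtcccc
EIF4E, chr4:98929134-98929383, - strand: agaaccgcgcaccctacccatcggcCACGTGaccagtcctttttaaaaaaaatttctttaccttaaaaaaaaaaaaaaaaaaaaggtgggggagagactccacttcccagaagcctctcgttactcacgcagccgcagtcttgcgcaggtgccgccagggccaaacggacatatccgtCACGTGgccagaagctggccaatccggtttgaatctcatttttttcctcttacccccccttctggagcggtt
EIF4B, chr12:53006206-53006455, + strand: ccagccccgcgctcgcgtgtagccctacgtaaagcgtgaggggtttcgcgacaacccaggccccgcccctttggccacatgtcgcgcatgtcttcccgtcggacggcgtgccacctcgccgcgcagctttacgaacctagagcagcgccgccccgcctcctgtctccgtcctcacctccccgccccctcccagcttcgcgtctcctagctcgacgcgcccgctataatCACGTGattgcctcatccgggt
EIF1, chr17:41688635-41688884, + strand: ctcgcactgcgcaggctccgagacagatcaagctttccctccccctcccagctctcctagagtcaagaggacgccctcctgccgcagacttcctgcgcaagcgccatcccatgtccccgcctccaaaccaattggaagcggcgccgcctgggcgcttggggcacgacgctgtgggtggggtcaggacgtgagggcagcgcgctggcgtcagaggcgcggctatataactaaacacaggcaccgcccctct
In these windows the first base of CACGTG stood 179 bases before the start of EIF2B3, 225 and 72 bases before that of EIF4E and 22 bases before that of EIF4B. EIF2AK4 and EIF1 held none.

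Over the 45 factors with a promoter in the RefSeq table, CACGTG (a palindrome, so the same on both strands) was found in 12, or 26.7%, against 7.73% of all 27305 genes with a promoter and 11.2% of those above the filter. Above the filter, 11 of 42 factors with a promoter held it. Their log2 folds ran from -0.20 to 0.80 with a median of 0.28, and those without the motif had a median of 0.20. On either strand, GCGCA followed by any base and GCGC, the motif of NRF1, was in 9 of these 42 factors and 12.3% of genes above the filter. CCGGAAG, the motif of ETS factors, was in 8 of these 42 factors and 19.6% of those genes. Without the filter, the NRF1 motif was in 20% of the 45 factors and 6.20% of all genes with a promoter. The ETS motif was in 17.8% and 10.2%. The motif shares are descriptions of these windows, and the folds of factors with and without CACGTG overlapped.

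Genes of the eIF2 complex, which brings the initiator tRNA, were all above 0, with a median log2 fold of 0.14. EIF2S1 (chromosome 14, 67359997 to 67386516, GRCh38), the alpha subunit that the stress kinases phosphorylate, had 3134 counts and 187 TPM with CBS, against 2304 counts and 140.4 TPM in EV. Its log2 fold was 0.35 (0.27 to 0.42), or 0.23 with the GC and length trend removed. EIF2S2, the beta subunit, was at 0.14 (0.09 to 0.19), and EIF2S3, the GTP-binding gamma subunit, at 0.05 (-0.00 to 0.10), or -0.06 with that trend removed. The subunits had close levels, 155 to 187 TPM with CBS and 140.4 to 154 TPM in EV. EIF2S1 was the highest of them in the CBS library and the lowest in the EV library. The interval of EIF2S3 held a ratio of 1, and those of EIF2S1 and EIF2S2 did not.

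The exchange factor eIF2B held the largest fold of the set, in a single subunit. EIF2B3 (chromosome 1, 44850522 to 44986722), the gamma subunit of the catalytic part, had 529 counts and 24.3 TPM with CBS, against 282 counts and 12.5 TPM in EV. Its log2 fold of 0.80 (0.60 to 1.02) stood at percentile 96.9 of all genes above the filter. Low in level beside its partners, it was the least abundant eIF2B subunit in both libraries, and no other gene above the filter overlapped it. EIF2B5, the catalytic epsilon subunit, was at 0.27 (0.13 to 0.41) and EIF2B4, the delta subunit, at 0.25 (0.11 to 0.39). Of the remaining subunits, EIF2B2 (beta) was at 0.18 (0.05 to 0.30) and EIF2B1 (alpha) at 0.08 (-0.04 to 0.19), a value of -0.01 with the GC and length trend removed. EIF2B5 as annotated here spans EIF4G1 and other genes, which makes its reads less certain. The most abundant subunit, EIF2B2, exceeded EIF2B3 in TPM by 3.50-fold with CBS and 5.47-fold in EV.

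All 3 eIF2 kinases of the set had intervals above a ratio of 1, against 43.5% of all genes with at least 1000 counts in 1 library. EIF2AK4 (chromosome 15, 39934146 to 40035591), which encodes GCN2, the kinase that senses uncharged tRNA, had 2548 counts and 46.0 TPM with CBS, against 1604 counts and 25.2 TPM in EV. That is a log2 fold of 0.57 (0.48 to 0.66), at percentile 92.3 of all genes. EIF2AK2 (chromosome 2, 37099210 to 37157065), the interferon-induced kinase PKR that binds double-stranded RNA, had 2065 against 1492 counts, 18.6 against 12.8 TPM and a log2 fold of 0.37 (0.27 to 0.47). Removal of the GC and length trend left EIF2AK2 at 0.27 and EIF2AK4 at 0.53. EIF2AK1, the heme-regulated kinase HRI, was the most abundant of them at 72.4 against 60.0 TPM and lay nearest to no difference, at 0.19 (0.12 to 0.27). It overlaps AIMP2 on the other strand, whose log2 fold was 0.75, and whether the counting used strand is not given in the sources used here.

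Subunits of eIF3, the large scaffold of the small ribosomal subunit, were mostly a little higher. Leaving out the copy EIF3CL, 11 of 13 subunits had intervals above a ratio of 1 and 2 below, with a median log2 fold of 0.14. Among all genes with at least 1000 counts in 1 library, 43.5% lay above and 37.0% below. Only 7.69% of the 13 were at least 25% higher, against 19.2% of all genes. EIF3J (chromosome 15, 44537057 to 44563029), a loosely bound subunit that helps release the mRNA channel, was the one past 25% higher, with 2084 counts and 103 TPM with CBS, against 1420 counts and 74.6 TPM in EV. Its log2 fold was 0.45 (0.36 to 0.55), or 0.32 with the GC and length trend removed. Next came EIF3B, of the core, at 0.28 (0.24 to 0.33), EIF3E at 0.28 (0.23 to 0.33) and EIF3K at 0.28 (0.20 to 0.35). Smaller folds were those of EIF3M at 0.18, EIF3I at 0.15, EIF3G at 0.14, EIF3C at 0.13, EIF3L at 0.07, EIF3D, which can itself bind a cap, at 0.07, and EIF3A, the largest subunit, at 0.06, or -0.03 with that trend removed. These folds were small beside the depth, since each of these subunits had over 1000 counts in both libraries.

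EIF3F and EIF3H, the pair of eIF3 subunits with MPN domains, were the exceptions, at -0.06 (-0.11 to -0.00) and -0.07 (-0.13 to -0.01) after TMM scaling. Both turned to above 0 with plain library totals (0.02 and 0.01) and in log2(TPM + 1) (0.10 and 0.05). The median of all genes also rose there, to 0.07 with library totals and 0.09 in log2(TPM + 1). With the GC and length trend removed, EIF3F was at -0.16 and EIF3H at -0.19. Levels of the subunits spread 4.92-fold, from 102 TPM (EIF3A) to 502 TPM (EIF3M), in the CBS library. In the EV library they spread 5.46-fold, from 74.6 TPM (EIF3J) to 407 TPM (EIF3M).

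EIF3CL (chromosome 16, 28379579 to 28403879), a copy of EIF3C, had 319 counts and 7.32 TPM with CBS, against 438 counts and 9.88 TPM in EV, a log2 fold of -0.55 (-0.77 to -0.34). Of the 50-base windows of its longest transcript, 98.7% occur in transcripts of EIF3C, so the split of reads between the copies is uncertain. Summed, EIF3C and EIF3CL were at 0.11.

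Of the eIF4 group, 14 of 16 genes passed the filter, 8 of them with an interval above a ratio of 1 and 2 below, and the median log2 fold was 0.24. That is 57.1% above and 14.3% below, against 31.6% and 31.1% of all genes. At least 1000 counts in 1 library were reached by 12 of the 14, and among all genes at that depth 43.5% lay above and 37.0% below. EIF4E2 (chromosome 2, 232550052 to 232583644), the cap-binding protein also called 4EHP, had 1370 counts and 81.5 TPM with CBS, against 962 counts and 55.2 TPM in EV, a log2 fold of 0.41 (0.29 to 0.53). EIF4E (chromosome 4, 98871684 to 98930637), the main cap-binding protein, had 1683 counts and 111 TPM with CBS, against 1241 counts and 76.4 TPM in EV. Its log2 fold was 0.34 (0.23 to 0.45), or 0.24 with the GC and length trend removed. EIF4E3, another cap-binding paralog, lay on the other side, at -0.31 (-0.55 to -0.08) with 281 against 326 counts, while its 4.76 TPM with CBS and 4.67 TPM in EV were almost level. EIF4E1B had no count in either library.

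EIF4G2 (chromosome 11, 10797050 to 10809110) was counted 28317 times with CBS against 20691 times in EV, for a log2 fold of 0.35 (0.33 to 0.38), or 0.24 with the GC and length trend removed. EIF4G1, the main scaffold between cap and ribosome, was counted 17812 times with CBS against 13493 in EV, for a log2 fold of 0.30 (0.27 to 0.33), just under 25% higher. EIF4G3, its paralog, was at 0.07 (-0.02 to 0.17), and its interval held a ratio of 1. EIF4A1 (chromosome 17, 7572706 to 7579005) was counted 26464 times with CBS against 19356 in EV, for a log2 fold of 0.35 (0.33 to 0.38). EIF4A2, its close paralog, was at -0.05 (-0.12 to 0.03), an interval that held 1, and at 0.03 with library totals and 0.01 in log2(TPM + 1). With the GC and length trend removed EIF4A2 was at -0.16. EIF4A3, the helicase of the exon junction complex, was at 0.29 (0.20 to 0.38). The helicase cofactors lay near or below 0, EIF4H at 0.07 (0.03 to 0.10) and EIF4B at -0.13 (-0.17 to -0.09). EIF4B counts were 9648 with CBS against 9885 in EV.

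The inhibitors that hold eIF4E away from eIF4G differed among themselves. EIF4EBP2 was at 0.32 (0.22 to 0.41), with 2131 against 1598 counts. EIF4EBP1, more abundant at 356 against 313 TPM, was at 0.03 (-0.03 to 0.09), and at 0.34 with the GC and length trend removed. Its transcript had a GC content of 65.5%. EIF4ENIF1, which carries eIF4E into the nucleus, was at 0.20 (-0.01 to 0.40). EIF4EBP3 had 10 counts in each library and stayed below the filter, while the readthrough ANKHD1-EIF4EBP3, which holds it, had 1076 against 1275 counts.

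Among the other factors, EIF1 was the one abundant gene more than 20% lower. EIF1 (chromosome 17, 41688885 to 41692668), which guards the choice of start codon, was counted 7093 times with CBS against 9216 times in EV, for a log2 fold of -0.48 (-0.52 to -0.43) at percentile 17.1 of all genes. EIF1B, its paralog, was at -0.18 (-0.36 to -0.00), with 506 against 535 counts and 36.4 against 37.9 TPM. EIF1AX (chromosome X, 20124518 to 20141844), the eIF1A protein that works beside eIF1 in scanning, lay on the other side, with 4441 counts and 127 TPM with CBS, against 3259 counts and 94.3 TPM in EV. Its log2 fold was 0.35 (0.28 to 0.41), or 0.25 with the GC and length trend removed. The Y-linked copy EIF1AY was below the filter. EIF5, which makes eIF2 hydrolyse GTP at the start codon, was at -0.16 (-0.21 to -0.10), with 5874 against 6114 counts, and EIF5B, which joins the subunits, at 0.18 (0.12 to 0.24). EIF1 and EIF5 were thus lower, and EIF1AX and EIF5B higher, in the same library. With the GC and length trend removed EIF5B was nearer to no difference, at 0.06, while EIF1 was at -0.55 and EIF5 at -0.26.

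EIF5A (chromosome 17, 7306999 to 7312463) was counted 21089 times with CBS against 15626 times in EV, for a log2 fold of 0.33 (0.30 to 0.36), or 0.31 under a filter of 100 counts, just short of 25% higher. EIF5AL1 (chromosome 10, 79512601 to 79516440), an intronless copy, had 292 counts and 5.30 TPM with CBS, against 166 counts and 2.97 TPM in EV, and its log2 fold was 0.70 (0.44 to 1.0). It shares 11.6% of its 50-base windows with EIF5A, so part of its counts cannot be assigned with certainty, and the sum of both was at 0.34. EIF5A2, the low paralog, had 85 against 92 counts, 2.18 against 2.21 TPM and a log2 fold of -0.20 (-0.66 to 0.23), and its interval held a ratio of 1. EIF6, which keeps the large ribosomal subunit from joining early, was at 0.25 (0.20 to 0.30), and EIF1AD, a nuclear relative of eIF1A, at 0.29 (0.13 to 0.46). EIF2A and EIF2D, which can bring initiator tRNA without eIF2, were at 0.07 (-0.01 to 0.16) and 0.06 (-0.05 to 0.17), and both intervals held a ratio of 1. With the GC and length trend removed they were at -0.07 and -0.01.

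Counts were also assigned to pseudogenes of several factors. They made up 9.76% of the counts of EIF2S2 with its pseudogenes in the CBS library and 10.0% in the EV library, 6.28% and 6.91% for EIF4B, and 5.28% and 4.79% for EIF3F. With pseudogene counts added to the parent, 12 factors were at least 25% higher and 2 at least 20% lower, as without them. It left EIF3F at -0.05 with an interval (-0.10 to 0.00) that held a ratio of 1.

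Setting 1 factor against another within the same libraries needs no scaling between them, and 20 such pairs, chosen after their values were seen, were compared by the ratio of their folds. EIF1AX relative to EIF1 was 1.77 times higher with CBS (counting interval 1.68 to 1.87), the widest of these gaps. Relative to EIF2B1, EIF2B3 was 1.66 times higher (1.41 to 1.97), and relative to EIF2B5 it was 1.45 times higher (1.21 to 1.74). EIF2AK4 was 1.296 times higher relative to EIF2AK1 (1.20 to 1.40). The balance of EIF4E to its inhibitor EIF4EBP1 in TPM was 0.311 with CBS and 0.245 in EV, and the ratio of their folds was 1.24 (1.14 to 1.35). That ratio keeps the GC and length trend. With the trend removed the order was the opposite, with log2 folds of 0.24 for EIF4E and 0.34 for EIF4EBP1. EIF4A1 stood at 12.2 times the TPM of EIF4A2 with CBS and 9.55 times in EV. EIF5A was 1.40 times higher relative to EIF5 (1.35 to 1.46), and EIF3J 1.43 times relative to EIF3F (1.32 to 1.54).

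**Figure D4:**
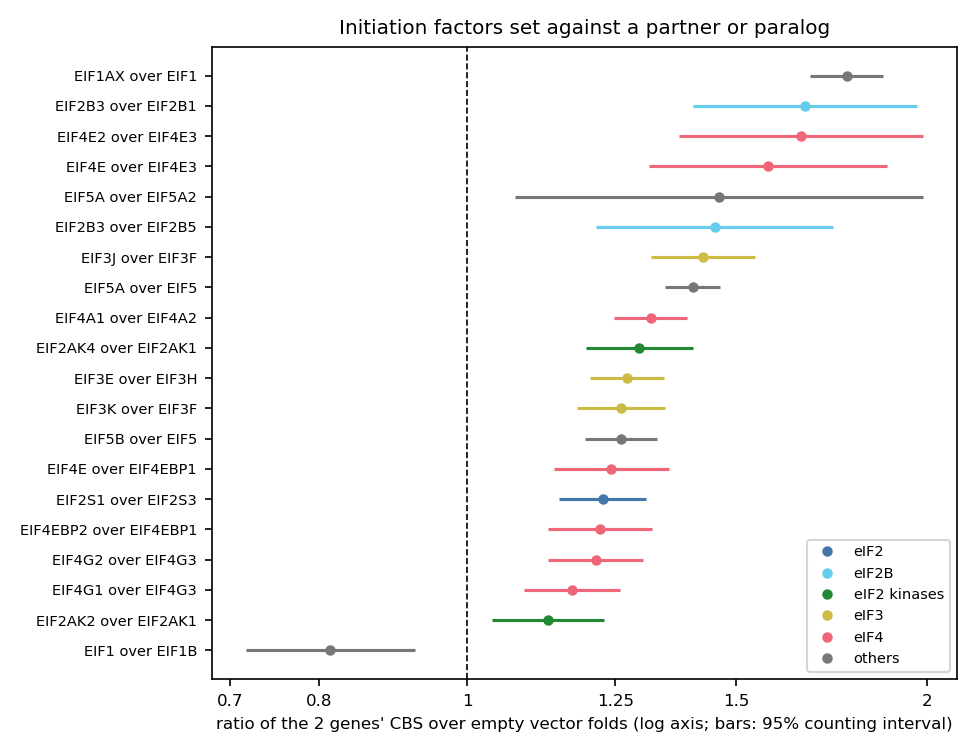
Ratio of the CBS over EV folds of 2 initiation factors on a log axis, with bars for the exact 95% counting interval, for 20 pairs chosen after their values were seen. EIF1AX over EIF1 lies highest at 1.77, and EIF1 over EIF1B is the one pair below 1.

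Genes that act with the initiation factors were taken from 4 lists. Of 21 initiation partners, 8 were higher and 3 lower by the rule of 25% up or 20% down, against 19.2% and 21.6% of all genes, and the median log2 fold was 0.17. That is 38.1% of the list higher and 14.3% lower. PDCD4, which binds and inhibits eIF4A, had 812 counts and 38.6 TPM with CBS, against 1353 counts and 55.6 TPM in EV, a log2 fold of -0.83 (-0.96 to -0.71). DAP, a death-associated protein, was at 0.70 (0.61 to 0.79), NCBP1, the large subunit of the nuclear cap-binding complex, at 0.67 (0.56 to 0.79), and ABCE1, which recycles ribosomes, at 0.63 (0.56 to 0.69).

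Of 10 regulators of eIF2 phosphorylation, 2 were higher and 1 lower by that rule, with a median of 0.12, and the share higher was near the 19.2% of all genes. PPP1R15A, also called GADD34, the stress-induced subunit that directs phosphatase to eIF2, was counted 1370 times with CBS against 2074 in EV, for a log2 fold of -0.69 (-0.80 to -0.60). IMPACT, which competes for the GCN2 activator GCN1, was at 0.48 (0.30 to 0.67), and DNAJC3, a chaperone, at 0.41 (0.29 to 0.54). PPP1CC, a catalytic subunit of protein phosphatase 1, was at 0.28 (0.21 to 0.34).

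Elongation and termination factors had a lower median, 0.03, with 5 of 13 above the filter higher and 0 lower by the same rule, against 19.2% and 21.6% of all genes. Intervals lay below a ratio of 1 for 4 of the 13 (EEF1A1, EEF1D, EEF1G and DHPS), or 30.8%, near the 31.1% of all genes. The summed counts gave a fold of 0.965 (0.959 to 0.970), against 0.951 for the summed counts of all genes above the filter. The higher genes included EEF2K, the kinase that inhibits elongation factor 2, at 0.65 (0.49 to 0.82), EEF1E1, a scaffold of the tRNA synthetase complex, at 0.58 (0.40 to 0.77), DOHH, which completes hypusine on eIF5A, at 0.55 (0.34 to 0.78), and the release factor ETF1 at 0.35 (0.30 to 0.40). In mTORC1 and translation signalling the median was 0.02, and 3 of 11 genes were higher and 0 lower, against the same shares of all genes. MTOR, the kinase that phosphorylates the inhibitors of eIF4E, was counted 1959 times with CBS against 1157 in EV, for a log2 fold of 0.66 (0.56 to 0.77), with RPS6KB1, an S6 kinase, at 0.36 (0.20 to 0.53), RPTOR at 0.35 (0.24 to 0.47) and RPS6KB2 at 0.21 (0.09 to 0.33). The median of both these lists was higher with the GC and length trend removed, at 0.19 for elongation and termination and 0.17 for signalling. Both then lay above the median of the initiation factors, 0.15, so the order of the lists depended on that trend. Protein levels, phosphorylation of eIF2 and translation were not measured in these files.

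**Figure D5:**
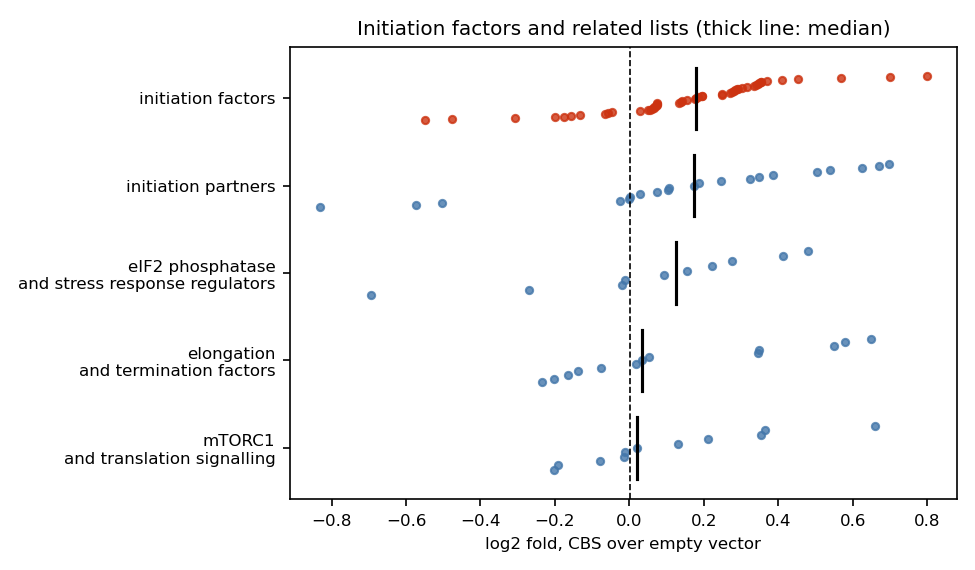
Log2 fold of CBS over EV for each gene above the filter, for the 51 initiation factors and 4 lists of genes that act with them, with thick lines for medians and a dashed line for the median of all genes. Medians run from 0.02 to 0.18, and PDCD4 and PPP1R15A are the lowest points of their lists.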

How the data were processed

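The authors deposited expected counts for each gene, which are estimates and may hold fractions, and TPM, which correct for length and depth. Trimmomatic 0.39, RSEM 1.3.2, STAR 2.6.1d and GRCh38 are named in the submitters' processing notes. The annotation release, strandedness and read layout are not given in the sources used here. Groups follow the genotype in the labels, with 1 library each.

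Expected counts were rounded. Genes needed 10 counts in either library and an average of 1 CPM to pass the filter. TMM factors were computed with edgeR 4.0.16 (R 4.3.3), without fitting a model, and DESeq2 1.42.0 size factors were an alternative. A prior count of 5 entered each log2 fold. Exact 95% intervals (Clopper-Pearson, conditional binomial) used no prior count and cover counting error only. They leave out the spread between cultures and treat reads as independent molecules, which reads amplified by PCR are not. Gene types, GC content and length came from GENCODE 29, with a value for 99.4% of genes above the filter. Their trend was taken out with a lowess curve (statsmodels 0.14.6, span 0.3). Intervals for pairs of genes are exact conditional intervals of the odds ratio (scipy 1.17.1).

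The calculation was tested on Poisson counts simulated for CBS over EV with 13304 genes. Among unchanged genes, 95.4% of intervals held the true value and 1.33% met the call rule. Genes with a true log2 fold of 0.5 were called in 84% of cases and those at -0.5 in 86%. Variation between cultures, TMM scaling and the assignment of reads to genes were not simulated. Changed genes had true log2 folds of 0.5 or 1 in size, so smaller changes were not tried.

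Members and lists were chosen with earlier results of these data known, and the pairs after their values were seen. Genes named are all factors by group, with full values for those at least 25% higher or 20% lower and their closest paralogs. From each related list come the genes furthest from 0, up to 4, that reach 100 counts in 1 library.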

Additional observations from a re-analysis of the deposited data

How the results depend on the processing

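No paired analysis was possible because each group holds 1 library, and for the same reason no library could be left out. The 12 factors at least 25% higher became 21 with plain library totals, 20 in the authors' TPM (called on the fold alone) and 2 at a threshold of 1.5-fold, while 24.4%, 27.1% and 7.02% of all genes passed. The 2 lower factors became 1 with copies summed, 1 under a filter of 1000 counts (an alternative chosen after seeing the data) and 0 at 1.5-fold, and 3 under a filter of 100 counts or with the GC and length trend removed, where EIF4E3 joined them. Of all genes, 21.6%, 19.3%, 12.9%, 22.2% and 20.2% were lower in those settings, in that order. No factor reached 2-fold in either direction under the other scalings, prior counts, filters and corrections run for that count.

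The median log2 fold of the factors moved to 0.25 with library totals and 0.27 in TPM, where the median of all genes was 0.07 and 0.09. The eIF2 median became 0.21 with library totals, 0.26 in TPM and 0.056 with the GC and length trend removed, that of the kinases 0.51 in TPM and 0.27 with the trend removed, that of eIF3 0.21 with library totals and 0.25 in TPM, and that of the other factors 0.023 with the trend removed. For elongation and termination the median was 0.14 in TPM and 0.19 with the trend removed, and for signalling 0.19 and 0.17. With the trend removed, 36 of 51 factors lay above 0, against 50.1% of all genes. No called factor changed sign under the alternatives run, and 6 of the 12 higher ones fell under 25% with the trend removed while 4 others passed it, giving 10, and 3 fell under it with a filter of 100 counts, giving 9. Of all genes, 18.2% were at least 25% higher with the trend removed and 19.3% with that filter. The causes were not tested.

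Depth was ample for most factors, and the widest interval above the filter was that of EIF5A2, with 85 against 92 counts. What depth cannot give is the spread between cultures, which 1 library per group leaves unknown.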

Other observations

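Counts and TPM of a gene differ by its estimated effective length, which depends on the transcripts the authors' tools assigned. Relative to the median of all genes, counts per TPM of EIF4E3 were shifted by -0.22 on the log2 scale (CBS over EV) and those of EIF2AK4 by -0.18, so that the log2 fold of EIF2AK4 was 0.57 in counts and 0.84 in log2(TPM + 1). The largest shifts the other way were those of EIF1AD at 0.18, EIF4ENIF1 at 0.16 and EIF2A at 0.15. The files give no values per transcript, and no test of these shifts was possible with 1 library per group.

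Of the 51 factors above the filter, 25 overlap another gene above the filter by their annotated coordinates and 26 do not. Genes on the other strand whose log2 folds were larger than that of the factor they overlap included AIMP2 at 0.75 (over EIF2AK1), DDX55 at 0.73 (over EIF2B1) and DRG1 at 0.56 (over EIF4ENIF1).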
